A study of Mus musculus with 17 samples.

Results

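Chromatin accessibility around Fos was profiled with ATAC-seq (a transposase inserts adapters into DNA that is not packed away) in neuronal nuclei of the mouse nucleus accumbens. Fos (ENSMUSG00000021250.13) lies on the plus strand of chromosome 12 at chr12:85473890-85477273 (mm10, GENCODE vM21). Every peak of the 17 libraries that overlapped this gene body extended by 50 kb on each side was taken, and peaks that overlapped by 1 bp or more were merged across libraries. The resulting 103.4 kb held 200 peaks in 18 merged regions, of 2136179 peaks and 281189 regions in the whole series. The members were thus chosen by position and not by their values. The only other annotated gene overlapping this stretch was Gm40477, a long intergenic noncoding RNA on the minus strand. The nearest protein-coding genes beyond it were Tmed10 on the upstream side and, 71754 bp past the downstream end, Jdp2.

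The mice, C57BL/6 in the labels and C57BL/6J in the study's methods, were aged 52 to 54 days. Cocaine animals were killed 1 h after an intraperitoneal dose of 10 mg/kg, and control animals had received no cocaine and stood for the time before the drug. A vehicle injection of the controls is not mentioned in the sources used here, so that the drug and the injection cannot be told apart. The groups were diestrus females, proestrus females and males, with 3 control and 3 cocaine libraries in each except for male cocaine, which had 2. Each library was made from the bilateral nucleus accumbens of 3 pooled animals of the same group, sorted with an antibody to NeuN, a protein of neuronal nuclei. For diestrus cocaine library 2 the labels leave the cycle stage empty, and only the title places it in diestrus.

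Fos is the prototype of the immediate early genes, which neurons switch on within minutes of synaptic activity without new protein synthesis. Its protein pairs with a Jun protein to form AP-1, a transcription factor that binds TGACTCA or TGAGTCA. Transcription of Fos is driven by calcium and cAMP signals through CREB, which binds the cAMP response element TGACGTCA or its core TGACG, through the serum response factor SRF, which binds the CArG box, and through distal enhancers on both sides of the gene. In the striatum, of which the nucleus accumbens is the ventral portion, Fos is a common marker of cells activated by psychostimulants.

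The height of a peak is given here as the fold enrichment deposited by the authors, the read pileup at the summit over the background pileup of that library, each plus 1. Libraries held 75458 to 157005 peaks, fewest in the male cocaine libraries (75458 and 87707), and their background pileup was 6.26 to 9.55 reads. A region without a peak can still hold reads, so that a missing call means that no peak was called at this depth. For comparison between libraries, log2 fold enrichments were centred on the library's median over the 36847 regions called in every library. As a check of the labelled cell type, all 11 listed marker genes of accumbens neurons had a peak at their start site, among them the dopamine receptor genes Drd1 and Drd2 and the opioid precursor gene Penk. Of 16 markers of glia and endothelium, only Gfap and Mbp had a retained peak there. None of the 3 microglial, 2 oligodendrocyte precursor or 3 endothelial markers did. Gfap was called in 16 libraries. Mbp was called in all 17, at a mean fold enrichment of 10.05, within the range of the tested neuronal markers, from 4.869 at Tac1 to 21.98 at Syt1.

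Of the 18 regions, 4 were called in all 17 libraries, 5 others were called in at least 2 libraries of 1 group, and 9 were not. Of those 9 regions, 7 were called in 1 library, with fold enrichments over all 9 between 2.21 and 5.35. The 4 constant regions were the start region over the Fos promoter and gene body (chr12:85471302-85477566), a region with its summit 37.5 kb upstream of the start site (chr12:85435340-85437725), another 18.5 kb upstream (chr12:85453994-85457221) and a region 12.2 kb downstream (chr12:85485057-85488282). The region 37.5 kb upstream covered the 5′ end and an exon of Gm40477, although its summit lay outside that gene, and the other distal regions were intergenic. The summits that the individual libraries gave for the start region fell within 38 bp of each other, and within 72 bp in the region 18.5 kb upstream.

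**Figure D1:**
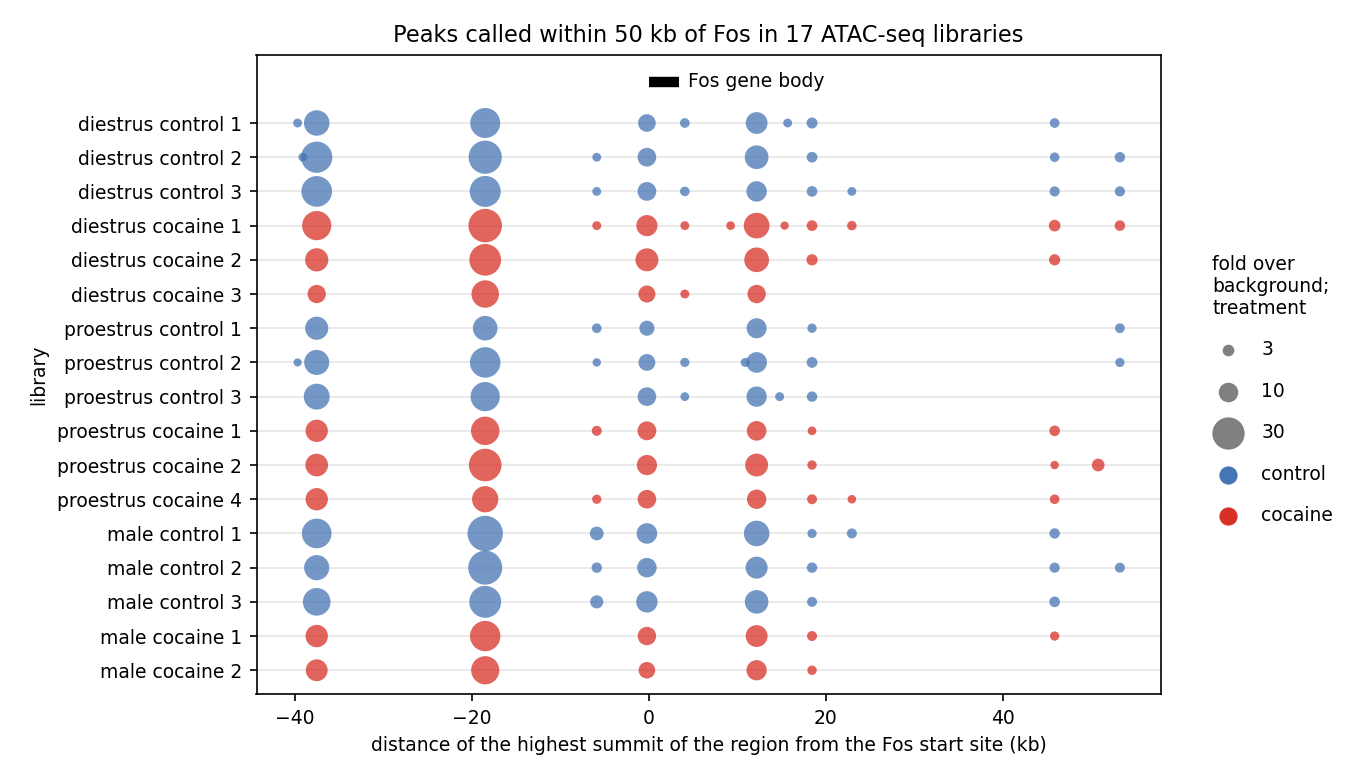
Peaks called in each of the 17 libraries (rows) against the distance in kb of the region's highest summit from the Fos start site. The area of a point is proportional to the fold enrichment over background, blue marks control and red cocaine libraries, and the black bar is the Fos gene body. The columns at the start and at 37.5 and 18.5 kb upstream and 12.2 kb downstream are complete, and the smaller points farther out are present in some libraries only.

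The DNA at the summits of these 4 regions is shown because it carries the candidate binding letters of the factors named above. Each line gives the plus strand of mm10 (GRCm38) from 5′ to 3′, in lower case, with every TGACG or its reverse complement, every CArG box and every AP-1 site in capitals. The 4 stretches are chr12:85473542-85473841 (start), chr12:85436243-85436542 (37.5 kb upstream), chr12:85455277-85455576 (18.5 kb upstream) and chr12:85485936-85486235 (12.2 kb downstream).
Start: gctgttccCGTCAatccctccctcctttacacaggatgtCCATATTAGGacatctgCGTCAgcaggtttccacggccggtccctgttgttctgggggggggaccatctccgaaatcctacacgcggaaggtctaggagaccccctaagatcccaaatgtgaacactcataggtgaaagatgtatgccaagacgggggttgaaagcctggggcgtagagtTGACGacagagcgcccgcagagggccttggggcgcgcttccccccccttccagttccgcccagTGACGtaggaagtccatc
37.5 kb upstream: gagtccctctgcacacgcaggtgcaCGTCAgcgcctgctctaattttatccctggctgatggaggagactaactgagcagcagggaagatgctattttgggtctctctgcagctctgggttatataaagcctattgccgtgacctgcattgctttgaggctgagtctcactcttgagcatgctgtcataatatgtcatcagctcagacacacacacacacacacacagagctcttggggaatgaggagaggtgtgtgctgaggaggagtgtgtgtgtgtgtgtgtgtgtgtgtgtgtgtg
18.5 kb upstream: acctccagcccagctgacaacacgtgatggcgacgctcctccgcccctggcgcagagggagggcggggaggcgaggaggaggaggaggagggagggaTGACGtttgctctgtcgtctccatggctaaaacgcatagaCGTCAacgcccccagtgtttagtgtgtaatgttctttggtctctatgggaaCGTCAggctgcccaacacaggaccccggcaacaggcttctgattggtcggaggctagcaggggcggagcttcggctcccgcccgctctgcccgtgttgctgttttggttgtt
12.2 kb downstream: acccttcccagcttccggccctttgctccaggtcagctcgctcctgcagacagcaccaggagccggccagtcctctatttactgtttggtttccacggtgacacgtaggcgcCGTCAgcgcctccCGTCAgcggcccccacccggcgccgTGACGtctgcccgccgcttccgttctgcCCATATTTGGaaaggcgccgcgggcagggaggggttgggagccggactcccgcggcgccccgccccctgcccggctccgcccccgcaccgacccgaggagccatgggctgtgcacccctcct

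Within 100 bp of the summit, the core TGACG was present 2 times at the start, 3 times in the region 18.5 kb upstream and 3 times in the region 12.2 kb downstream. It was absent from this window 37.5 kb upstream. For comparison, 15.8% of the 36847 regions called in every library had at least 1 core within 100 bp of the summit, on either strand. A CArG box lay within 100 bp of the summit only in the region 12.2 kb downstream among these 4 regions, against 1.16% of all such regions. In the start region the CArG box lay farther from the summit but inside the 300 bases shown. The complete element TGACGTCA, which contains the core, and the AP-1 site were found within 100 bp of none of these 4 summits, against 1.25% and 11.5% of all regions called in every library. In the 300 bases around the Fos start site at chr12:85473640-85473939, taken from RefSeq (GRCm38.p6), the core TGACG occurred 2 times, and 20.8% of 32817 promoters of the same length held it. A match is a description of letters and not a measured binding site.

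The constant regions differed in height. Averaged over the 17 libraries, the start region stood at 1.8 times the median of the regions called in every library, above 78.7% of them, but near the middle of the 9775 start regions of protein-coding genes, above 43.5%. The region 18.5 kb upstream was the highest, at 4.7 times the median region and above 97.2% of all. The region 37.5 kb upstream stood at 3.14 times and the region 12.2 kb downstream at 2.4 times. In each of the 17 libraries, control or cocaine, all 3 distal regions were higher than the Fos start region.

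At the start region, fold enrichment was 10.2, 11.5 and 11.6 in the 3 diestrus controls and 14.7, 17.4 and 9.53 in the 3 diestrus cocaine libraries. In proestrus it was 7.497, 9.28 and 11.5 in controls and 11.7, 13.4 and 11.4 after cocaine. In males it was 13.9, 12.5 and 15.04 in controls and 11.2 and 9.07 after cocaine. As deposited, the groups thus overlapped in diestrus and proestrus, and the male cocaine libraries lay below the male controls. Both male cocaine libraries were also low over the whole genome, since without centring the median of all regions was 0.40 log2 lower in male cocaine than in male control libraries.

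After centring, every diestrus cocaine library was above every diestrus control library at the start region, as was the case for 13.5% of all regions called in every library. Group means of the centred log2 fold enrichment ran from 0.68 ± 0.26 (SD, n = 3) in proestrus controls through 0.73 ± 0.06 (n = 3) in diestrus controls, 0.85 ± 0.14 (n = 3) in male controls, 0.88 ± 0.17 (n = 2) in male cocaine and 0.96 ± 0.15 (n = 3) in proestrus cocaine to 0.99 ± 0.23 (n = 3) in diestrus cocaine. Neighbours in this order differ in sex, stage or treatment, so the gaps between them do not compare cocaine with control. Between matched groups the gap was 0.26 in diestrus, above the larger SD of 0.23, and 0.28 in proestrus, above the larger SD of 0.26. In males it was 0.03, below the larger SD of 0.17. In limma fitted to all 36847 regions, cocaine minus control was 0.26 in diestrus (SE 0.160, adjusted p = 0.286), 0.28 in proestrus (SE 0.160, adjusted p = 0.312) and 0.03 in males (SE 0.179, adjusted p = 0.934). The 95% intervals, −0.07 to 0.59, −0.04 to 0.61 and −0.34 to 0.39, reach 1.5-fold in diestrus, 1.53-fold in proestrus and 1.31-fold in males at their upper ends. The mean of these 3 effects was 0.19 (95% interval −0.01 to 0.39, limma adjusted p = 0.184), and a two-sided exact permutation test of it within sex and stage gave p = 0.0405 over 4000 assignments. That p was 0.645 without centring and between 0.0144 and 0.138 when each library was left out in turn, and 11 of these 17 omissions took it past 0.05.

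The cocaine effect at the start region did not differ detectably between groups. The diestrus effect minus the proestrus effect was −0.02 (95% interval −0.48 to 0.44, limma adjusted p = 0.993), and the male effect minus the mean female effect was −0.24 (95% interval −0.67 to 0.19, limma adjusted p = 0.436). Without centring the latter became −0.79 (limma adjusted p = 0.0188), against −0.48 for the median of all regions. In controls, diestrus minus proestrus was 0.05 (limma adjusted p = 0.929) and male minus mean female was 0.15 (limma adjusted p = 0.454).

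**Figure D2:**
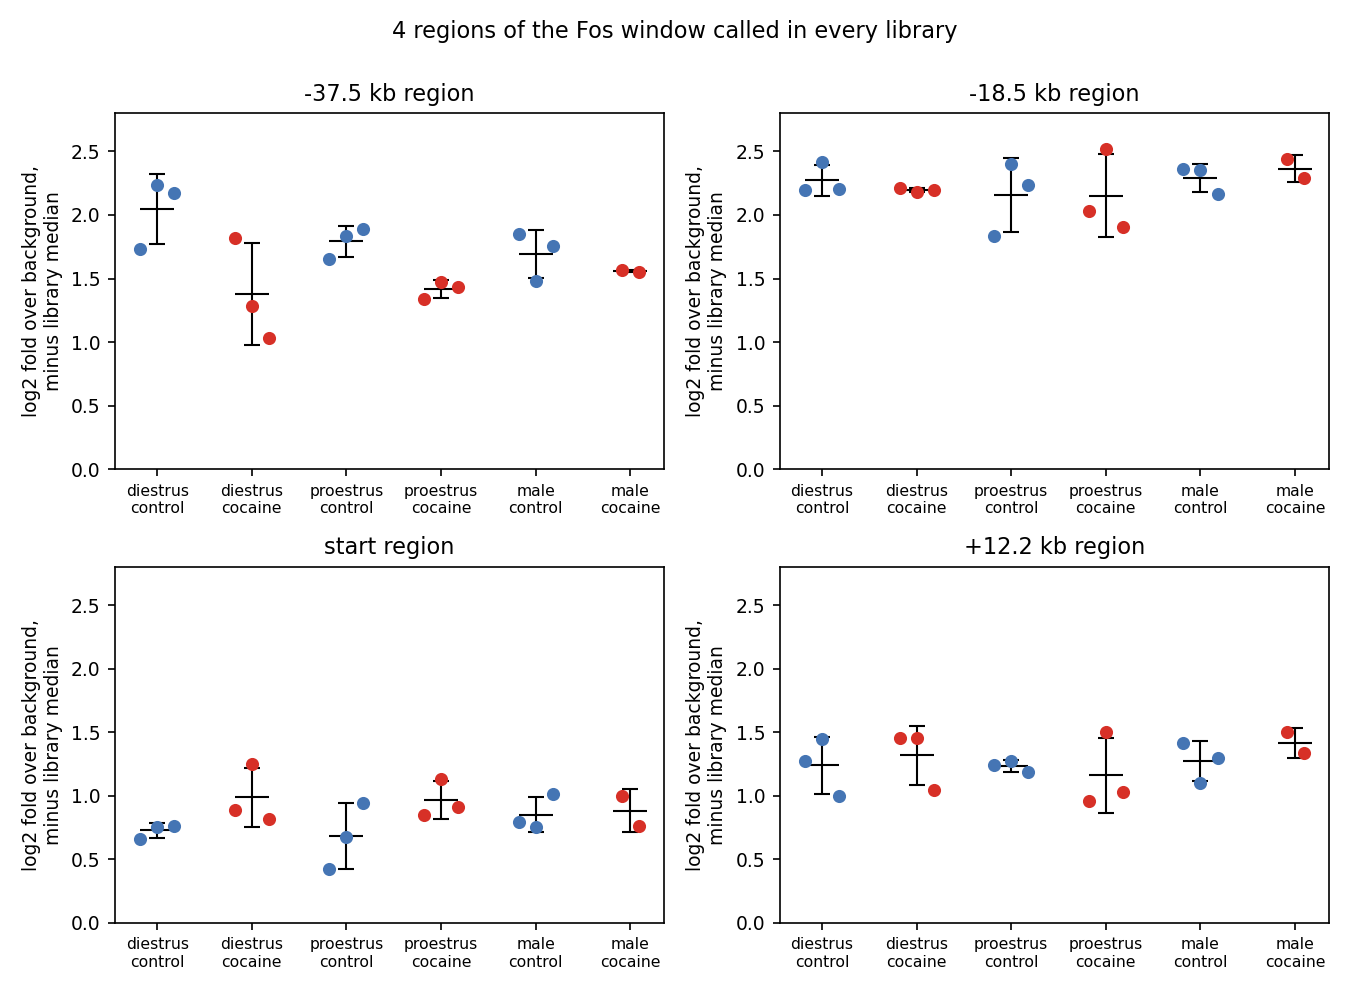
Log2 fold enrichment over background minus the library's median (y axis) at the 4 regions called in every library, by group (x axis). Points are libraries, blue for control and red for cocaine, and bars are the mean ± SD. At 37.5 kb upstream the diestrus cocaine mean of 1.38 lies below the diestrus control mean of 2.05, whereas the group means 18.5 kb upstream stay between 2.15 and 2.37.

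The region 37.5 kb upstream, at the 5′ end of Gm40477, was lower after cocaine. Its fold enrichment was 21.4, 32.2 and 30.9 in diestrus controls and 28.02, 17.7 and 11.03 in diestrus cocaine libraries. In proestrus it was 17.6, 20.7 and 22.1 in controls and 16.4, 16.9 and 16.4 after cocaine. In males it was 28.9, 20.8 and 25.1 in controls and 16.5 and 15.7 after cocaine. The cocaine libraries lay below all controls of their group in proestrus and in males, and diestrus cocaine library 1 overlapped the diestrus controls. After centring the male groups overlapped as well.

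With libraries centred, the fold enrichment there after cocaine was 0.628 of the control level in diestrus (95% interval 0.491 to 0.803, log2 difference −0.67, SE 0.174, limma adjusted p = 0.0179). It was the only region of the 4 past the threshold of 0.05 in diestrus, where 9.61% of all regions were, and 4.34% were lower after cocaine. The number of all regions called in diestrus, 3540, ranged from 65 to 9848 when single libraries were left out. In proestrus the log2 difference was −0.38 (95% interval −0.73 to −0.02, limma adjusted p = 0.212), and every proestrus control was above every proestrus cocaine library, as in 13.2% of regions. In males it was −0.14 (95% interval −0.53 to 0.26, limma adjusted p = 0.694). The mean of the 3 effects was −0.39 (SE 0.105, limma adjusted p = 0.0121), again the only call among the 4 regions, where 13.6% of all regions were called and 5.93% were lower. An exact two-sided permutation test within sex and stage gave an unadjusted p = 0.0035, and between 0.00167 and 0.0125 when each library was left out. That test was planned for the start region only. Here it uses the same values as the limma call and adds no independent support. The diestrus call was lost (adjusted p between 0.0852 and 0.149 in limma) when diestrus control 2 or 3 or diestrus cocaine 2 or 3 was left out, while the call on the mean was kept without any single library. The diestrus call was also lost without centring (limma adjusted p = 0.101). Both calls were lost in the fits with missing calls set to the smallest value. Over all retained regions the limma adjusted p was 0.0985 in diestrus and 0.066 for the mean, and over summit windows 0.251 and 0.143. This region was called in every library, so none of its own values was filled in, and only the centring and the regions tested changed. Neither interaction passed, with −0.30 for diestrus minus proestrus (limma adjusted p = 0.854) and 0.39 for male minus mean female (limma adjusted p = 0.235), so a difference in effect between groups was not shown in this fit. With array weights the male minus mean female effect was 0.45 (limma adjusted p = 0.0319) and the proestrus effect −0.43 (limma adjusted p = 0.0199). Over the 17 libraries its centred values had a Pearson correlation of −0.31 with those of the Fos start, given as a description.

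A marker of neurons from outside the nucleus accumbens is set beside this region, and it was chosen after its values were seen. Slc17a7 encodes the vesicular glutamate transporter of cortical excitatory neurons, and its start region was called in every library. That of Neurod6, another marker of those cells, was called in 5 libraries. The cocaine effect at the Slc17a7 start region was −0.57 in diestrus (limma adjusted p = 0.033), −0.43 in proestrus (limma adjusted p = 0.144) and −0.16 in males (limma adjusted p = 0.614), beside −0.67, −0.38 and −0.14 in the region 37.5 kb upstream of Fos. The summed fold enrichment of these 2 markers was 11.6 to 15.2 in diestrus controls and 5.74 to 13.7 in diestrus cocaine libraries, 8.55 to 10.4 and 6.84 to 10.7 in proestrus, and 18.9 to 22.4 and 7.56 to 10.4 in males. Slc17a7 alone gave the same extremes in both diestrus groups, in proestrus controls and in male cocaine libraries. It reached at most 8.01 in proestrus cocaine libraries and was 11.4 to 15.9 in male controls. Peaks of Neurod6 thus raised the sums in proestrus cocaine and in male controls, so that Neurod6 did not follow Slc17a7 in proestrus. Over the 17 libraries the centred values of Slc17a7 and of this region had Pearson's r = 0.863 and Spearman's rho = 0.863, with r = 0.775 after leaving out the 2 farthest libraries and r = 0.812 between deviations from the group means. For the other 3 constant regions r with Slc17a7 lay between −0.278 and 0.297. These values describe a gene picked for this pattern and no test is given. The part of these markers in the result was not tested. Fewer cells of a type in a library and less open chromatin per cell cannot be told apart in these bulk samples.

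The other 2 constant regions showed no difference between groups that the data could resolve. In the region 18.5 kb upstream, the highest of the window, fold enrichment was 29.6, 36.3 and 31.7 in diestrus controls and 36.9, 33.1 and 24.8 after cocaine. In proestrus it was 19.96, 30.6 and 28.2 in controls and 26.6, 35.0 and 22.7 after cocaine, and in males 41.2, 38.0 and 33.5 in controls and 30.3 and 26.2 after cocaine. After centring, the mean was 2.20 ± 0.02 (SD, n = 3) in diestrus cocaine and 2.27 ± 0.12 (n = 3) in diestrus control libraries. Its 8 log2 differences, the 3 cocaine effects, their mean, the differences between them and those between controls, lay between −0.07 and 0.12, with a smallest limma adjusted p of 0.727.

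In the region 12.2 kb downstream, which held 3 CREB cores and the CArG box close to its summit, fold enrichment was 15.6, 18.5 and 13.7 in diestrus controls and 21.7, 20 and 11.1 after cocaine. In proestrus it was 13.2, 14.04 and 13.6 in controls and 12.6, 17.2 and 12.4 after cocaine, and in males 21.4, 15.97 and 18.3 in controls and 15.7 and 13.5 after cocaine. The female groups overlapped, and the 8 log2 differences lay between −0.07 and 0.15 (smallest limma adjusted p = 0.655). In proestrus and in males 0 of the 4 regions passed, where 3.33% and 9.18% of all regions did. None of the 4 passed either when the male effect was set against the mean female one (17% of all regions) or the diestrus effect against the proestrus one (0.00543%) or, in controls, for male against female (24.3%) and diestrus against proestrus (0.266%). Across the 17 libraries the centred values of the regions 18.5 kb upstream and 12.2 kb downstream had the highest correlation of any pair of the 4, with r = 0.56, and both had about the same r with the start region, 0.31 and 0.33. These points share their libraries and the centring, and the correlations are given as a description.

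**Figure D3:**
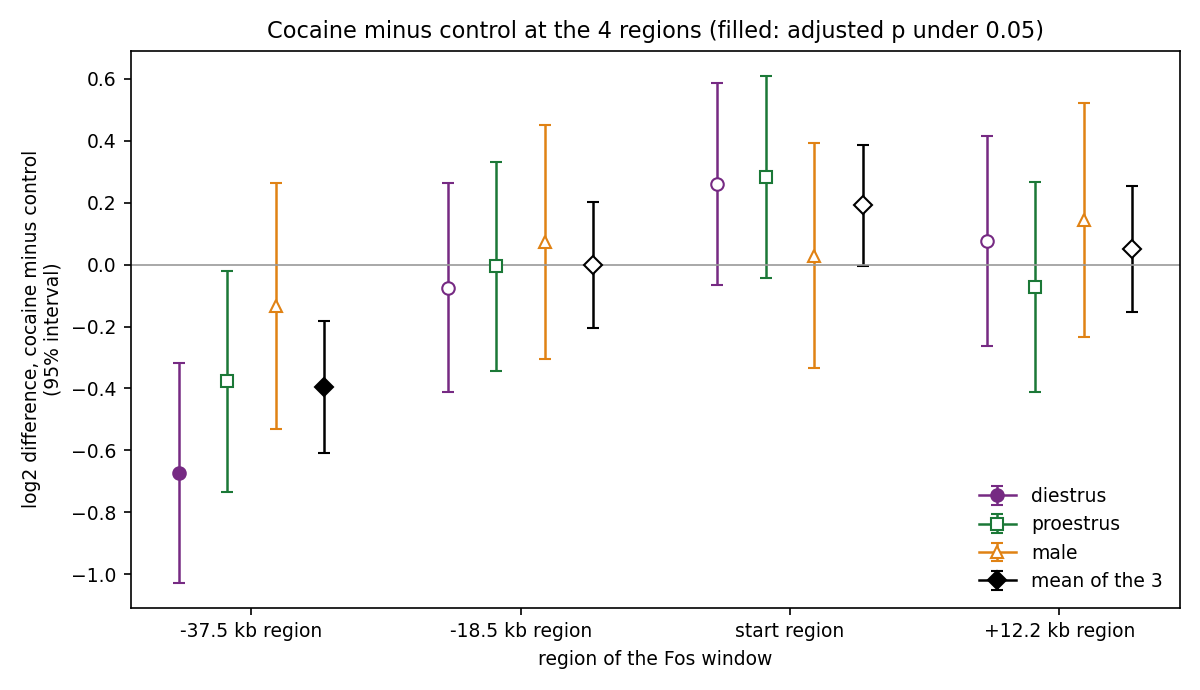
Log2 difference in centred fold enrichment, cocaine minus control, with 95% intervals (y axis) at the 4 regions called in every library (x axis). Circles are diestrus, squares proestrus, triangles males and diamonds the mean of the 3, and filled symbols have a limma adjusted p under 0.05. The diestrus value of −0.67 and the mean of −0.39 at 37.5 kb upstream are the only filled symbols, and the start values are 0.26, 0.28 and 0.03, the last of which is below 0 without centring.

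The remaining 5 retained regions had lower peaks, at 2.32 to 6.25, and 2 of them separated groups completely. The 150 bases at their summits, at chr12:85519674-85519823 and chr12:85467951-85468100 on the plus strand of mm10, are shown. The first stretch holds both spellings of the AP-1 site (capitals). The second, from the closest retained distal peak on the upstream side, holds none of the motifs searched. Outside these bases that region had 2 copies of the core TGACG, on either strand.
45.9 kb downstream: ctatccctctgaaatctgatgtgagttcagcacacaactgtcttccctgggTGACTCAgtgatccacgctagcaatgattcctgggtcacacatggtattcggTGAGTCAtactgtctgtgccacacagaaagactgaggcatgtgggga
5.9 kb upstream: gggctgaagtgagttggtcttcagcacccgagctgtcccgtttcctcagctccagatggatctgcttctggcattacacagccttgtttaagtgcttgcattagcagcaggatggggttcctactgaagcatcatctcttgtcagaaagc

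The region 45.9 kb downstream (chr12:85519563-85519920) had 2 AP-1 sites within 100 bp of its summit. Among all 147420 retained regions, 10.1% had an AP-1 site within 100 bp of the summit. It was called in 0 of 3 proestrus controls and in 3 of 3 proestrus cocaine libraries, where its fold enrichment was 3.71, 2.35 and 3.04. Such a complete gain in proestrus was seen in 2.45% of retained regions. The peak was not confined to cocaine, since it was also called in all 3 diestrus controls (3.10, 3.01 and 3.43), in diestrus cocaine 1 and 2 (4.51 and 4.15), in all 3 male controls (3.57, 3.44 and 3.73) and in male cocaine 1 (2.84). By calls the proestrus controls thus stood apart as a group, although diestrus cocaine 3 and male cocaine 2 also lacked the peak. Calls in every diestrus control and no proestrus control were found in 3.96% of retained regions and in every male control and no proestrus control in 10.5%. These 3 comparisons share the same proestrus controls. With missing calls set to the library's smallest fold enrichment, cocaine minus control in proestrus was 0.47 (95% interval 0.10 to 0.84, limma adjusted p = 0.168), and 2.51% of retained regions passed in that fit. Diestrus minus proestrus controls was then 0.44 (95% interval 0.07 to 0.81, limma adjusted p = 0.196) and did not pass either.

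The region 5.9 kb upstream (chr12:85467648-85468456) was called in 3 of 3 male controls, with fold enrichments of 6.25, 3.58 and 5.71, and in neither male cocaine library. This pattern was common, at 16.8% of retained regions, and the 2 male cocaine libraries had the fewest peaks of all. In females the region was called in 4 of 6 controls and 3 of 6 cocaine libraries, with fold enrichments from 2.32 to 3.31. As deposited, these were all below those of the 3 male controls. Relative to the library's median the groups overlapped, with male control 2 at 0.482, below proestrus control 1 at 0.547 and proestrus cocaine 1 at 0.508. With missing calls set to the smallest value of the library, male controls were 0.73 above the mean of female controls (SE 0.175, limma adjusted p = 0.00313), when 33.9% of retained regions passed and their median was at −0.12. Cocaine minus control in males was then −0.64 (SE 0.226, limma adjusted p = 0.0314), when 32.7% passed and the median was at 0.28. In the male cocaine libraries these values are filled in rather than measured. The same fit also called the regions 4.1 and 18.5 kb downstream higher in male cocaine, by 0.58 and 0.53. The former was called in none of the 5 male libraries. Its filled-in values were 2.17, 2.20 and 2.09 in male controls and 2.08 and 2.21 in male cocaine libraries. Its difference thus appeared only after centring on the library's median. The latter was not higher as deposited, since its male cocaine values of 3.28 and 2.906 lay within the range of the 3 male controls. Only relative to the library's median were both male cocaine libraries, at 0.588 and 0.544, above every male control.

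**Figure D4:**
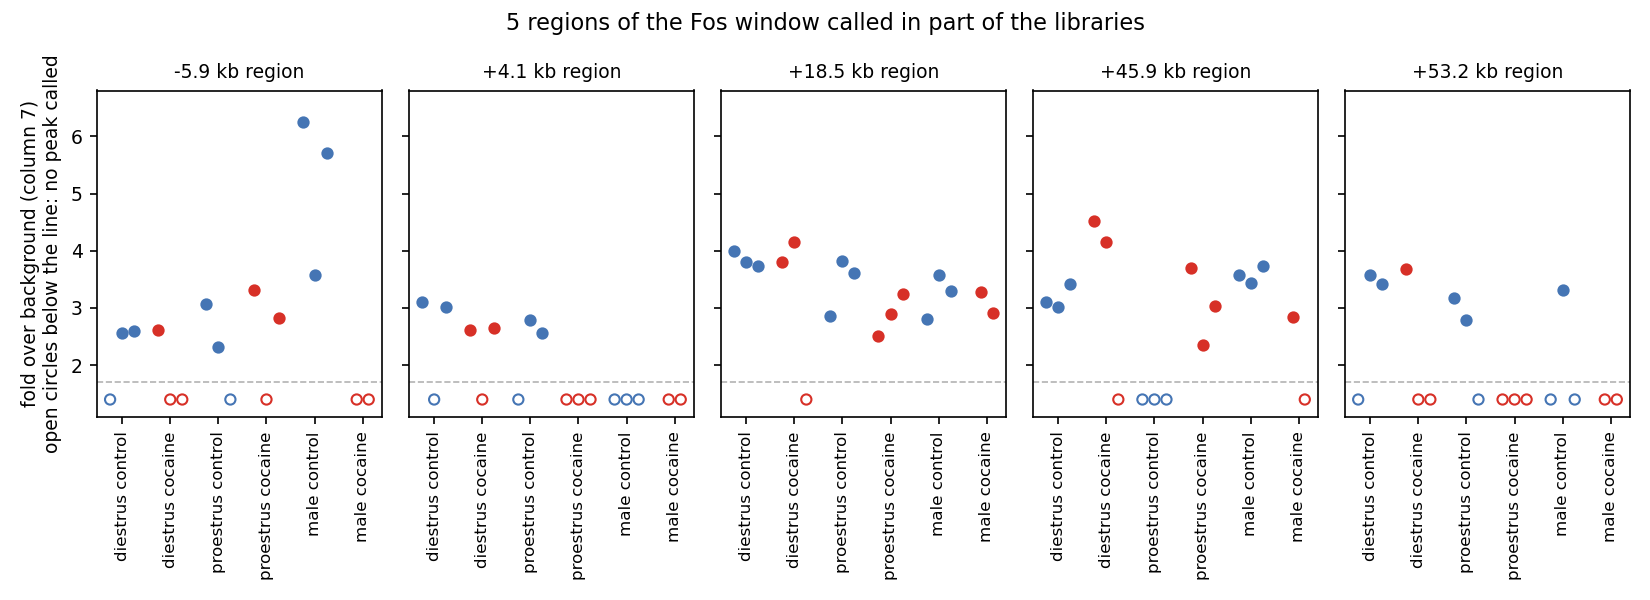
Fold enrichment over background (y axis) by group (x axis) at the 5 retained regions that were called in some libraries only. Filled circles are libraries with a called peak and open circles below the dashed line are libraries without one, blue for control and red for cocaine. At 45.9 kb downstream the 3 proestrus controls are open and the 3 proestrus cocaine libraries filled, and at 5.9 kb upstream both male cocaine libraries are open.

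Of the other 3 regions, the one 18.5 kb downstream was called in 16 of 17 libraries, all but diestrus cocaine 3, at 2.50 to 4.15. The one 4.1 kb downstream, just past the end of Fos, was called in 4 of 9 control and 2 of 8 cocaine libraries, all of them female. The one 53.2 kb downstream, at the edge of the window, was called in 5 of 9 control libraries and 1 of 8 cocaine libraries and had an AP-1 and a MEF2 site within 100 bp of its summit. In Fisher's exact test on calls, pooled over sex and stage, 4 of the retained regions could be tested and the smallest p was 0.131 (two-sided, adjusted p = 0.511). Over all 64304 regions called in 4 to 13 libraries this test called 0 (0.0%), although 8385 had an unadjusted p under 0.05.

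The start regions of the genes that act with Fos and upstream of it were compared in the same fit. The lists hold genes whose accessibility at the start site was measured here, not their expression. Of 14 AP-1 family genes other than Fos, 11 had a start region called in every library, and 0 of these passed in diestrus, proestrus or males, where 9.61%, 3.33% and 9.18% of all regions did. The 3 of highest mean fold enrichment were Jun, the main partner of Fos, at 63.1, Jund at 41.5 and Junb at 31.9, against 11.8 for Fos. Their cocaine effects in diestrus were 0.33, −0.09 and 0.13. The median cocaine effect over the 11 genes was 0.11 in diestrus, −0.19 in proestrus and 0.24 in males, beside 0.01, −0.02 and 0.09 over all regions. For the male minus mean female effect 1 of the 11 passed, against 17% of all regions, and in controls 2 of the 11 passed for male against female, against 24.3%. The first was Fosb, which gives rise to the long-lived ΔFosB of chronic cocaine exposure. Its male minus mean female cocaine effect was 0.69 (SE 0.222, limma adjusted p = 0.0312), and the male minus mean female difference in controls was −0.50 (SE 0.145, limma adjusted p = 0.0123). Maf was higher in male than in female controls, by 0.44 (limma adjusted p = 0.0287).

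Among 20 regulators of Fos transcription, 18 had a start region called in every library. Creb1, which encodes CREB, was higher after cocaine in diestrus, by 0.51 (SE 0.161, limma adjusted p = 0.0416), and was the only 1 of the 18 to pass in diestrus, where 9.61% of all regions passed. In proestrus and in males 0 of the 18 passed, and 1 of the 18 did for the male minus mean female effect and 2 for male against female controls (17% and 24.3% of all regions). The Creb1 effect was 0.19 in proestrus and −0.11 in males, and the diestrus minus proestrus difference did not pass (limma adjusted p = 0.826). Of the 3 regulators of highest mean fold enrichment, Atf2 at 47.0 and Mkl1 at 42.3 had diestrus effects of 0.23 and −0.18, and the third was Creb1 at 36.5. Mapk3, the kinase ERK1 that activates the SRF partner Elk1, had a male minus mean female effect of 0.64 (SE 0.209, limma adjusted p = 0.0342), and in controls Mapk3 (−0.64) and the CREB relative Atf1 (−0.41) were lower in males (limma adjusted p = 0.00118 and 0.0371). Srf itself passed in none of the 8 contrasts.

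Of 17 other immediate early genes, 16 could be tested. In diestrus and proestrus 0 of the 16 passed (9.61% and 3.33% of all regions), and in males 1 of the 16 (9.18%) was lower after cocaine, Klf2, a transcription factor gene, with a log2 difference of −0.89 (SE 0.181, limma adjusted p = 0.00198). For the male minus mean female effect 2 of the 16 passed, against 17% of all regions, with −0.93 at Klf2 and 0.79 at the clock gene Per1 (limma adjusted p = 0.00528 and 0.0178). The 3 of highest mean fold enrichment, Egr1 at 51.2, Per1 at 44.0 and Arc at 35.2, had diestrus effects of 0.10, −0.34 and −0.15 that did not pass. In controls 4 of the 16 passed for male against female, near the 24.3% of all regions, with males below females at Arc (−0.37), Npas4 (−0.59) and Per1 (−0.47) and above them at Klf2 (0.42). At the Fos start region the same difference was 0.15 and did not pass. All differences between the sexes in these lists are relative to the library median. Without centring the median of all regions was −0.48 for the male minus mean female effect and 0.25 for males minus females in controls, and the listed genes were not refitted on that scale.

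The 5 protein-coding genes outside the window whose start regions varied most like that of Fos over the 17 libraries were Otud1 (r = 0.827), Wdr44 (0.793), Atp6v1g1 (0.788), Atg10 (0.785) and Arf5 (0.782), of 9774 compared. They were picked as the highest of that many, so the values of r are a description, and none of these genes is an immediate early gene of the lists above.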

How the data were processed

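Groups came from the sample titles. Per the labels and the study's methods, reads were aligned to mm10 with BWA and peaks were called in each library separately with MACS2. Versions and options are not given in the sources used here. Read counts were not used here. For every peak the authors deposited a score, the ratio of summit to background pileup, and −log10 p- and q-values, none of them normalized between libraries. The deposited summit offset gave the summit position. Background pileup was recovered from the step of the fold ratios (100% whole multiples, tolerance 0.01).

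Overlapping peaks of the autosomes and X were joined, and regions called in at least 2 libraries of 1 group were retained (147420). The highest fold ratio per library and region was taken as log2, centred on the library's median, and fitted with limma 3.58.1 (R 4.3.3), 6 group means and 8 contrasts, with Benjamini-Hochberg adjustment over 36847 regions and a threshold of 0.05. On simulated data for diestrus, 89.5% of 200 regions changed by 1 log2 unit were recovered among 36847, and 1% of those changed by 0.5. Only these 200 regions were changed, whereas 3540 were called in the diestrus data, and the adjustment is stricter where fewer regions change. The recovered shares therefore do not carry over to the data, where Creb1 passed in diestrus at 0.51. Calls were compared with Fisher's exact test (scipy 1.17.1). Each library pooled 3 animals and the methods call the pools biological replicates, so p-values measure the spread between pools. Depth limits the small peaks most: background was 6.26 to 9.55 reads. The 2 male cocaine libraries, with the fewest peaks, had a background of 8.15 and 7.60 reads, against 6.84, 6.26 and 8.11 in the male controls. The source of their fewer peaks was not tested. Motifs were searched on both strands within 100 bp of summits.

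All regions of the window were reported. Described in full were the start region, regions called in every library or past a threshold, and regions that separated cocaine from control. Of each gene list, those past the threshold and the 3 of highest mean are named. One listed marker gene is not reported here. Slc17a7 was set beside a member after its values were seen. The members, lists and motifs were chosen with earlier results of these data known. Alternatives covered scaling, GC content, replicate numbers, peak thresholds, region definition, missing calls, array weights and leaving out each library.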

Additional observations from a re-analysis of the deposited data

How the results depend on the processing

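At the Fos start region no cocaine effect passed the threshold in the fit reported. With array weights the diestrus difference was 0.42 (limma adjusted p = 0.0156). Without centring, male minus mean female was −0.79 for the cocaine effect and 0.44 in controls (limma adjusted p = 0.0188 and 0.0474). Without centring the median of all regions was −0.40 for male cocaine against control, −0.48 for male minus mean female effect and 0.25 for male minus female controls. The male cocaine difference, 0.03 as reported, was −0.46 without centring, −0.07 with quantile normalization, −0.12 with GC bin centring, −0.079 with replicate block and GC bin centring, −0.057 with array weights and −0.001 in summit windows of 200 bp with missing calls set to the smallest value, an alternative chosen after seeing the data. The diestrus minus proestrus effect turned to 0.26 with array weights, 0.11 with missing calls set and 0.14 in summit windows, and diestrus minus proestrus controls to −0.006 there. Leaving out each library gave 0.13 to 0.33 in diestrus, 0.14 to 0.41 in proestrus, −0.082 to 0.18 in males, 0.15 to 0.24 for the mean, −0.16 to 0.10 for diestrus minus proestrus effect, −0.36 to −0.08 for male minus female effect, −0.078 to 0.18 for diestrus minus proestrus controls and 0.08 to 0.22 for male minus female controls. The exact permutation test of the mean gave 0.07 (p = 0.645) without centring and 0.16 (p = 0.0643) with quantile normalization, and 0.15 to 0.23 leaving out each library.

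In the region 37.5 kb upstream the diestrus difference was −0.65 without centring, −0.52 with missing calls set and −0.46 in summit windows, and the mean was −0.30 and −0.32 in the last 2, none past the threshold. Without centring the male minus mean female effect there was −0.16 and the difference in controls 0.069. This region was called in all 17 libraries and had the same fold ratios in each of these fits, so none of its own values was filled in. The fits differed in how the libraries were centred and, with missing calls set and in summit windows, also in the regions tested.

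The number of Fos regions past the threshold in diestrus, 1 as reported, was 2 with array weights and 0 without centring, with missing calls set and in summit windows, and 0 to 1 leaving out each library. In proestrus it was 1 with array weights and in males 3 with missing calls set, against 0. For the mean it was 0 with missing calls set and in summit windows, against 1. For male minus female effect it was 1 without centring, 1 with array weights and 2 with missing calls set, and for male minus female controls 1 without centring, 4 with missing calls set and 1 in summit windows, against 0 each. Both counts were 0 to 1 leaving out each library, with 1 only without diestrus cocaine 3. Merging 200 bp around summits gave 33 Fos regions in place of 18.

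Over all regions, calls in diestrus numbered 3540 as reported, 816 without centring, 14427 with array weights, 10317 with missing calls set and 6261 in summit windows. In proestrus they numbered 1228, 614 without centring, 811 with GC bin centring, 9197 with array weights and 3693 with missing calls set. In males they numbered 3382 (1886 higher), 12232 without centring (116 higher), 10563 with array weights, 48193 with missing calls set and 10696 in summit windows. For the mean they numbered 4999, 12921 with array weights, 27166 with missing calls set and 14893 in summit windows. The missing-call fits tested more regions. Leaving out each library gave 65 (without diestrus cocaine 2) to 9848 (without diestrus cocaine 1) in diestrus, 181 (without proestrus cocaine 1) to 2961 (without proestrus cocaine 2) in proestrus, 816 (without male cocaine 1) to 5096 (without proestrus cocaine 2) in males and 2969 (without male cocaine 1) to 8693 (without diestrus cocaine 1) for the mean, so the shares of all regions called move with single libraries.

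Same-numbered control and cocaine libraries correlated in their deviations from the group means between −0.293 and 0.195, so the numbers were not taken to pair them. A replicate block gave 3162 calls in diestrus and 219 in proestrus (278 with GC bin centring) and left the counts of Fos regions in these comparisons at 1 and 0.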

Other observations

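Within the merged start region a separate summit upstream of the main one, at chr12:85471903-85472367, was called in 16 of 17 libraries, all but diestrus cocaine 1, with fold enrichments of 2.87 to 6.42. Within the region 12.2 kb downstream, a summit 14011 bp from the start site was called in 15 libraries. Its fold enrichment was 8.54, 6.34 and 6.37 in the 3 male controls, and the highest value in any other library was 4.91, in diestrus control 1. With missing calls set to the smallest value, male minus mean female controls there was 0.60 (limma adjusted p = 0.116).

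Among the 10 neuronal marker genes tested, the start regions of 2, both neuropeptide precursor genes, were higher after cocaine in diestrus, where 9.61% of all regions passed, Penk by 0.90 (limma adjusted p = 0.00395) and Tac1 by 0.71 (limma adjusted p = 0.0107). The diestrus minus proestrus effect passed at neither (limma adjusted p = 0.487 at Penk and 0.754 at Tac1). In males 1 of the 10 passed, against 9.18% of all regions, and this was Drd2, higher after cocaine by 0.86 (limma adjusted p = 0.00298). For the mean of the 3 cocaine effects 3 of the 10 passed, all higher, against 13.6% of all regions. For the male minus mean female effect 3 passed as higher and 1, Penk, as lower, against 17%. In controls male minus mean female was −0.66 at Drd2 (limma adjusted p = 0.00121). For that difference 5 of the 10 passed, all lower in males, against 24.3% of all regions. These values are relative to the library's median, and the marker genes were not refitted without centring.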
